A study of Mus musculus with 8 samples.

Results

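The 37 genes described here act in DNA replication and S phase, the part of the cell cycle in which the genome is copied. They were taken from a given list of gene symbols. That list was chosen with earlier results of these data known. All 37 symbols were found among the 57010 genes of the files and in the authors' normalised table, and all 37 passed the filter on low counts, which left 13378 genes. The RNA came from naive CD4 T cells, helper T cells that have not yet met antigen, which were sorted out of peripheral lymph nodes of C57BL/6 mice of wt genotype. Activation in culture lasted 20 h, by coated antibodies against CD3 and CD28 at 4 µg/mL each, which stand in for the signals of the T cell receptor and of costimulation. In 4 FAC cultures iron was added, and 4 control cultures (Ctrl.) received the same activation without it. Each of mice 1 to 4 gave 1 FAC and 1 control culture. All 8 libraries therefore come from activated cells and there is no unactivated library, so these data hold no measure of how far activation itself moved these genes. The FAC dose, the age of the mice and whether a vehicle was added to the control cultures are not given in the sources used here.

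Before a cell copies its DNA, origins are licensed: the origin recognition complex (Orc1), Cdc6 and Cdt1 load the ring of Mcm2 to Mcm7, the core of the replicative helicase. In S phase the kinase Cdc7, Mcm10, Cdc45 and the GINS complex turn that ring into a moving helicase, and polymerases, the sliding clamp Pcna and ligase follow. Many of these genes are transcribed under E2F factors, which the retinoblastoma proteins hold in check until G1 cyclins and their kinases act. Deoxynucleotides come from ribonucleotide reductase, built from the large subunit Rrm1 and the small subunit Rrm2, whose active site holds iron and a tyrosyl radical. A resting T cell holds little of this machinery and builds it during the first day after activation, before its first division. The question the design poses for these genes is whether added iron altered their RNA at that stage.

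The total expected count per library ran from 25410267 to 37350609. The 37 genes had between 170 and 28556 counts in every library. The transferrin receptor gene Tfrc, whose RNA is known to be degraded when a cell has ample iron, averaged 572 ± 31.2 CPM, counts scaled to library size, in FAC cultures and 991 ± 34.6 CPM in control cultures (SD, n = 4 each), lower with FAC in 4 of 4 mice. The 9 T cell markers summed to between 2695 and 2772 TPM, transcript abundance scaled for length, in FAC libraries and between 2549 and 2620 TPM in control libraries. Of 17 markers of other cells, 15 averaged under 1 TPM, and Lyz2 of myeloid cells and Ncr1 of natural killer cells were at 0 in all 8 libraries. The highest was Cd8b1 of CD8 T cells, at a mean of 9.09 TPM. That list summed to between 12.4 and 15.8 TPM in FAC libraries and between 12.8 and 24.4 TPM in control libraries. In a bulk library, fewer cells in S phase and less RNA per cell cannot be told apart.

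Replication genes were among the abundant transcripts of these cells. Levels are compared between genes in TPM, which is scaled for transcript length, as means over all 8 libraries. Of the 37 genes, 34 lay above the median of all genes tested, 13.5 TPM. Pcna, the clamp that tethers polymerases to DNA, was highest at 639 ± 27.9 TPM (SD, n = 8), the 98.5th percentile of the genes tested. The 6 Mcm ring genes followed, with Mcm5 at 428 TPM, Mcm3 at 407, Mcm6 at 356, Mcm7 at 270, Mcm2 at 252 and Mcm4 at 233 TPM. Mcm7 and Mcm2 changed places in 1 library and the other neighbours in that order held their places in all 8. Their products sit in equal numbers in 1 ring, and the highest ring gene was 1.77 to 1.91 times the lowest within a library. At the low end stood the transcription repressor E2f8, at 4.14 ± 1.28 TPM (SD, n = 8), in the 31st percentile, then cyclin E2 (Ccne2) at 10.2 TPM and Dscc1, a subunit of an alternative clamp loader, at 11.3 TPM. Of the 36 neighbour pairs in the full order, 17 kept one order in all 8 libraries. The other 19, among them Rrm2 with Gins2 at 62.0 and 61.9 TPM, and Lig1 with Cdt1 at 93.8 TPM each, exchanged places between libraries. Together the 37 genes held 4170, 4494, 4325 and 4843 TPM in FAC mice 1 to 4, against 4272, 4584, 4294 and 4911 TPM in control mice 1 to 4. The groups overlapped over nearly their whole range, and in each group mouse 4 had the highest sum and mouse 2 the next.

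**Figure D1:**
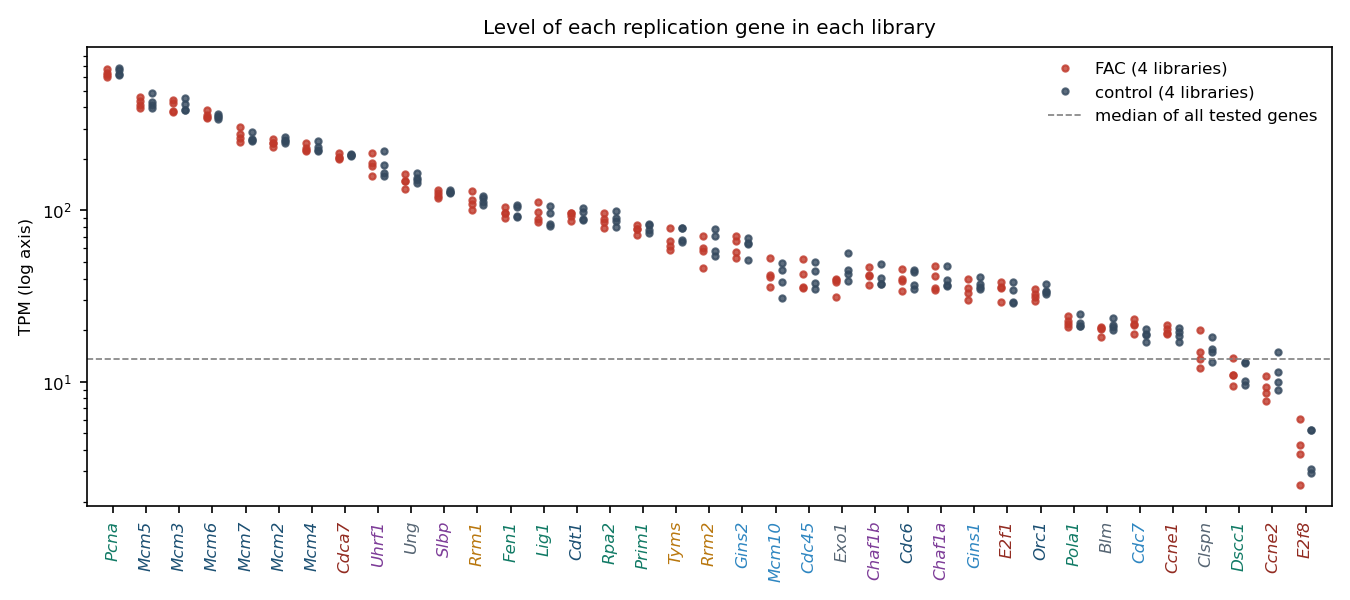
Level of each of the 37 genes in TPM on a log axis, with each FAC and each control library as a point, genes in order of their mean and the median of all genes tested as a dashed line. Pcna stood at 639 TPM and E2f8 at the low end, and within a gene the FAC and control points lay close together beside the distance between genes.

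The promoters of these genes carry many E2F-type sequences. RefSeq windows of 250 bases before to 50 after the start site (build GRCm38.p6, not the GRCm39 build named for the files) were given for 31 of the 37 genes, and Dscc1, Mcm4, Gins2, Gins1, Ccne2 and Exo1 had none. An 8-letter E2F motif (TTTCCCGC, TTTCGCGC, TTTGCCGC or TTTGGCGC, either strand) was found for 12 of 31 genes, 38.7%, against 5.05% of the 9177 tested genes with a window and 2.26% of all 32851 windows. Without its first T the same motif, of 7 letters, matched 22 of 31 genes, 71.0%, against 20.1% of tested genes and 9.57% of all windows. The CCAAT letters, known in promoters of many cell cycle genes, were found for 20 of 31 genes, 64.5%, against 43.5% of tested genes and 37.4% of all windows. A match is a description of letters and not a site, and the shorter E2F motif holds every match of the longer one. Among genes with a window, the 8-letter motif was found for 27 of 90 other replication genes and 1 of 26 mitosis genes, while CCAAT was found for 20 of those 26. The 5 windows below are shown because Mcm5 and Mcm7 stand for the Mcm ring, Uhrf1 had the lowest adjusted p for a difference between mice, and Rrm2 and Cdc7 had the lowest and the highest log2 change with FAC among the genes with a window. Capitals mark the 7- or 8-letter E2F matches, and Rrm2 and Cdc7 hold only the shorter motif.
Mcm5 promoter, chr8:75109259-75109558, plus strand: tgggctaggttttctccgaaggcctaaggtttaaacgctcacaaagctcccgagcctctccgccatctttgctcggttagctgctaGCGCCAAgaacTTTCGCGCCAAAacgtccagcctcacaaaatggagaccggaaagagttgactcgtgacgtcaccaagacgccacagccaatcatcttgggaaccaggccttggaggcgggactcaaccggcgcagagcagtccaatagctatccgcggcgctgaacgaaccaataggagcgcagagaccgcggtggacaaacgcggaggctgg
Mcm7 promoter, chr5:138171834-138172133, minus strand: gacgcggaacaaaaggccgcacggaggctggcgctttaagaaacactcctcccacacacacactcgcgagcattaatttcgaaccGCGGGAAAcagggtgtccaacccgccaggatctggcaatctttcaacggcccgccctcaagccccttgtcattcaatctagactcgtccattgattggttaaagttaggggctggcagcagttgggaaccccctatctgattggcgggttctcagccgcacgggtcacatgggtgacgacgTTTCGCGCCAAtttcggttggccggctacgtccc
Uhrf1 promoter, chr17:56304063-56304362, plus strand: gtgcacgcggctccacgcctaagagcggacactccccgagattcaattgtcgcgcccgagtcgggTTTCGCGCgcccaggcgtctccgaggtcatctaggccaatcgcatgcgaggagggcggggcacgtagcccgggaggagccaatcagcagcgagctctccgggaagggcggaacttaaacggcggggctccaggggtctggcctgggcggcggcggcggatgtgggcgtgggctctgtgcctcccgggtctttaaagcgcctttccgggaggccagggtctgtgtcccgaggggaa
Rrm2 promoter, chr12:24708004-24708303, plus strand: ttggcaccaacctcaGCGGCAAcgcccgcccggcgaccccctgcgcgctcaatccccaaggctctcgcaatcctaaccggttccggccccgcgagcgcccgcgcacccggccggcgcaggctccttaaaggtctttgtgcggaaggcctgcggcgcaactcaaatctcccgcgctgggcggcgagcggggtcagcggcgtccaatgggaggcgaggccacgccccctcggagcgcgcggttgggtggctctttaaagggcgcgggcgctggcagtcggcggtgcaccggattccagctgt
Cdc7 promoter, chr5:106964072-106964371, plus strand: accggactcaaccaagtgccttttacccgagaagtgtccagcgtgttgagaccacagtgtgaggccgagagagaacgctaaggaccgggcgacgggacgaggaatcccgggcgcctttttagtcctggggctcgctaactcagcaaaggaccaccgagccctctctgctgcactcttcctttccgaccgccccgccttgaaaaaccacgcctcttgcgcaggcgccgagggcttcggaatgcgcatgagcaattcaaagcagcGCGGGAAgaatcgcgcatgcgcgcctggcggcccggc

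Added iron moved none of the 37 replication genes past the test. With edgeR's quasi-likelihood test, 0 of 37 had a Benjamini-Hochberg adjusted p under 0.05 over all 13378 genes, where 3.27% of all genes did. That is 0 higher and 0 lower, against 2.18% and 1.10% of all genes. The count was also 0 with mouse as a block (6.87% of all genes), with DESeq2 (2.97%) and with limma on log2(TPM + 1) (1.08%). At an unadjusted p under 0.05, edgeR gave 2 of 37 genes (18.4% of all genes), edgeR with the mouse block 12 (23.6%), DESeq2 4 (10.4%) and limma 1 (15.0%). With the block, the only one of these fits that uses the pairing by mouse, the share of the 37 was above that of all genes. In edgeR without the block and in limma it was below, and in DESeq2 about the same. The estimates themselves leaned below 0: 30 of 37 log2 changes, FAC over control, were negative, against 50.4% of all genes, and their median was -0.06 against -0.00 for all genes. With limma on TPM the median of the 37 was -0.02, where that of all genes was 0.03. In edgeR it was -0.11 without the library of FAC mouse 4 and -0.02 without that of control mouse 4. FAC was below control in all 4 mice for 16 of the 37 genes (15.4% of all genes) and above it in all 4 mice for 0 (14.7%). The median was -0.05, -0.12, -0.04 and -0.03 within mice 1 to 4. The 37 estimates come from the same 8 libraries and are not independent of each other. Half-widths of the 95% intervals had a median of 0.15 on the log2 scale, and no bound passed -0.58 or 0.48, both of them those of E2f8. Those intervals come from the fit without mouse, which leaves out the pairing of the 2 cultures of a mouse. With mouse as a block the median half-width was 0.088, so the unpaired fit was the less precise one for these genes.

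**Figure D2:**
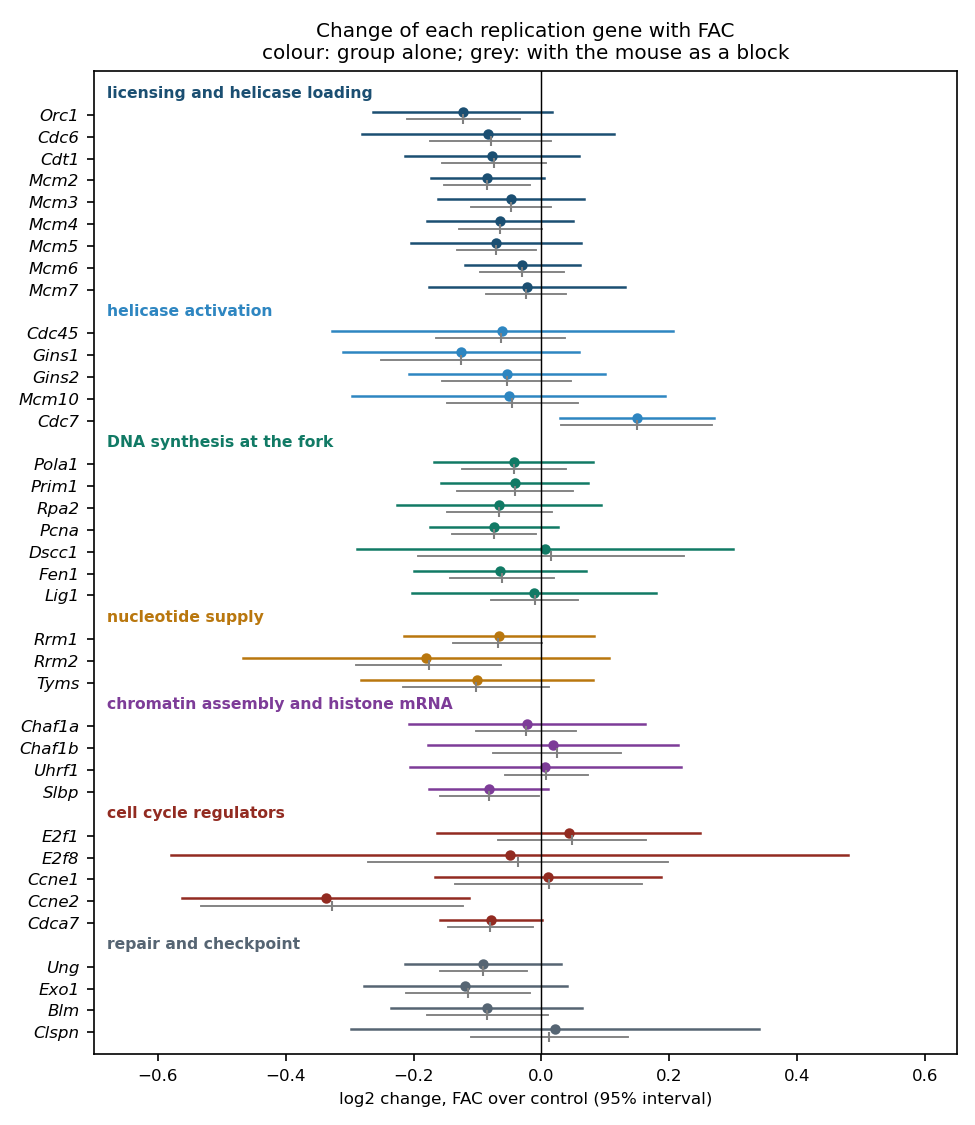
Log2 change of each gene, FAC over control, with its 95% interval from edgeR, coloured and grouped by role, the same with mouse as a block in grey below it, and a vertical line at 0. Ccne2 at -0.34 lay farthest below 0 and Cdc7 at 0.15 farthest above it, and none of the 37 passed the adjusted test in either fit.

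Among the 9 licensing genes every estimate was below 0, between -0.12 for Orc1 and -0.02 for Mcm7, and none passed the test. Cdc6, the loader that recruits the Mcm ring, had 65.2, 73.6, 70.7 and 85.0 CPM in FAC mice 1 to 4, against 67.1, 85.3, 71.1 and 87.9 CPM in control mice 1 to 4. Each mouse was lower with FAC, and the groups overlapped nearly completely (log2 change -0.08, 95% interval -0.28 to 0.11, edgeR adjusted p = 0.68). With mouse as a block the edgeR adjusted p of Cdc6 was 0.297. Mcm2, a ring subunit that also carries histones at the fork, had 516, 548, 533 and 578 CPM in FAC mice and 575, 585, 551 and 595 CPM in control mice. FAC mouse 4 lay within the control range and the other FAC libraries below it (-0.08, -0.17 to 0.00, adjusted p = 0.29). The other ring genes ran from -0.07 for Mcm5 to -0.02 for Mcm7, and Cdt1, the second loader, was at -0.08.

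The 5 helicase activation genes included the highest estimate of the set. Cdc7, the kinase that phosphorylates the loaded ring, had 42.4, 42.8, 41.6 and 37.2 CPM in FAC mice 1 to 4, against 35.2, 37.6, 36.9 and 38.2 CPM in control mice 1 to 4. FAC mice 1, 2 and 3 lay above every control library and FAC mouse 4 lay among them. Its log2 change was 0.15 (95% interval 0.03 to 0.27), with an unadjusted edgeR p of 0.0188 and an adjusted p of 0.174. Gins1, a GINS subunit, had 19.2, 22.4, 21.4 and 25.3 CPM in FAC mice and 22.8, 24.7, 22.1 and 26.6 CPM in control mice. Every mouse was lower with FAC, and the groups overlapped (-0.13, -0.31 to 0.06, adjusted p = 0.468). With mouse as a block the edgeR adjusted p of Gins1 was 0.208. Its log2 change was -0.066 without FAC mouse 1, -0.077 without control mouse 4 and -0.20 without FAC mouse 4. Gins2, Mcm10 and Cdc45 had estimates between -0.06 and -0.05, each with an interval spanning 0.

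The 7 genes of synthesis at the fork lay between -0.07 and 0.01. Pcna had 564, 596, 574 and 634 CPM in FAC mice 1 to 4, against 594, 659, 595 and 645 CPM in control mice 1 to 4. It was lower with FAC in each mouse, by amounts smaller than the range among the control mice (-0.07, 95% interval -0.18 to 0.03, edgeR adjusted p = 0.427). With mouse as a block the edgeR adjusted p of Pcna was 0.164. Pola1, the catalytic subunit of polymerase alpha, and Prim1, its primase, were at -0.04 each. Rpa2 of the single-strand binding protein was at -0.07, the flap nuclease Fen1 at -0.06, DNA ligase Lig1 at -0.01 and Dscc1 at 0.01. The counts of Pcna and Fen1 hold reads that the authors' counting shared with other genes in all 8 libraries, and those of Lig1 in 1 library. Of the 37 genes, 14 have such counts in at least 1 library. The 9 that have them in all 8 are the less certain values.

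Nucleotide supply includes ribonucleotide reductase, whose small subunit holds iron. Rrm2 had 62.7, 79.8, 80.5 and 98.3 CPM in FAC mice 1 to 4, against 72.8, 102, 79.7 and 109 CPM in control mice 1 to 4. Mice 1, 2 and 4 were lower with FAC, mouse 3 was nearly level, and the groups overlapped. Its log2 change was -0.18 (95% interval -0.47 to 0.11), the second lowest of the 37, with an edgeR adjusted p of 0.512, and 0.0604 with mouse as a block. Single libraries moved that value: it was -0.080 without FAC mouse 1, -0.084 without control mouse 4 and -0.12 without control mouse 2, against -0.29 without FAC mouse 4 and -0.27 without control mouse 1. Rrm1 had 233, 249, 235 and 291 CPM in FAC mice and 251, 271, 245 and 289 CPM in control mice (-0.07, -0.21 to 0.08, adjusted p = 0.663). In both groups mouse 4 was highest, and the mice spanned more than the groups differed. Tyms, thymidylate synthase, had 40.2, 43.0, 37.4 and 49.6 CPM in FAC mice and 42.3, 50.1, 41.9 and 47.8 CPM in control mice (-0.10, -0.28 to 0.08, adjusted p = 0.571). It was lower with FAC in 3 of 4 mice.

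The balance of the small and large reductase subunits was compared as the ratio of Rrm2 to Rrm1 in TPM. It was 0.422, 0.511, 0.600 and 0.548 in FAC mice 1 to 4, against 0.482, 0.595, 0.541 and 0.646 in control mice 1 to 4. The groups overlapped, and the ratio was lower with FAC in 3 of 4 mice, mouse 3 being the exception. The mean was 0.520 ± 0.075 in FAC libraries and 0.566 ± 0.070 in control libraries (SD, n = 4 each), a log2 difference of -0.12. The difference was -0.028 without FAC mouse 1, -0.059 without control mouse 4 and -0.20 without FAC mouse 3 or without control mouse 1. A two-sided exact permutation test over libraries gave p = 0.429, where 0.0286 is the smallest this design allows, and exact sign flips within mice gave p = 0.25, where 0.125 is the smallest. Rrm2b, the small subunit that serves resting and damaged cells, averaged 12.9 ± 1.05 CPM in FAC cultures and 13.9 ± 0.75 CPM in control cultures (SD, n = 4 each), at -0.10 (-0.27 to 0.08, edgeR adjusted p = 0.579).

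Chromatin and histone genes were close to 0. Uhrf1, which guides maintenance DNA methylation behind the fork, was at 0.01, Chaf1b and Chaf1a of the histone chaperone CAF-1 at 0.02 and -0.02, and Slbp, the stem-loop protein of histone mRNAs, at -0.08. Among the regulators, cyclin E2 (Ccne2) was the lowest of the 37. Ccne2 had 10.99, 10.1, 10.4 and 10.8 CPM in FAC mice 1 to 4, against 11.4, 14.5, 11.9 and 15.6 CPM in control mice 1 to 4. Every FAC library was below every control library, and the FAC mice were close together while control mice 2 and 4 stood above mice 1 and 3. Its log2 change was -0.34 (95% interval -0.56 to -0.11), with an unadjusted edgeR p of 0.00625, an adjusted p of 0.102 and, with mouse as a block, 0.0562. Without the filter on low counts Ccne2 passed, with an edgeR adjusted p of 0.0383. All 8 of its counts include shared reads. In TPM the groups did overlap, at 7.68 to 10.9 TPM in FAC libraries and 8.99 to 15 TPM in control libraries.

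Cyclin E1 (Ccne1), its paralog, which likewise drives S phase entry, had 22.2, 23.0, 24.5 and 27.6 CPM in FAC mice 1 to 4, against 21.5, 26.9, 23.7 and 24.3 CPM in control mice 1 to 4. Its groups overlapped and its log2 change was 0.01 (95% interval -0.17 to 0.19, edgeR adjusted p = 0.964). Whether the change in Ccne2 differs from that in Ccne1 was not tested. E2f1, an activating E2F, had 53.1, 64.4, 64.0 and 69.5 CPM in FAC mice and 54.1, 66.1, 53.1 and 70.05 CPM in control mice (0.04, -0.16 to 0.25, adjusted p = 0.855). Mouse 3 alone was higher with FAC. E2f8 was at -0.05. Cdca7, a chromatin factor under Myc and E2F, was the only other gene whose groups did not overlap, at 272 to 295 CPM in FAC libraries and 297 to 315 CPM in control libraries (-0.08, -0.16 to 0.00, adjusted p = 0.272). Those 2 of 37 stand beside 11.1% of all genes with groups that did not overlap.

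**Figure D3:**
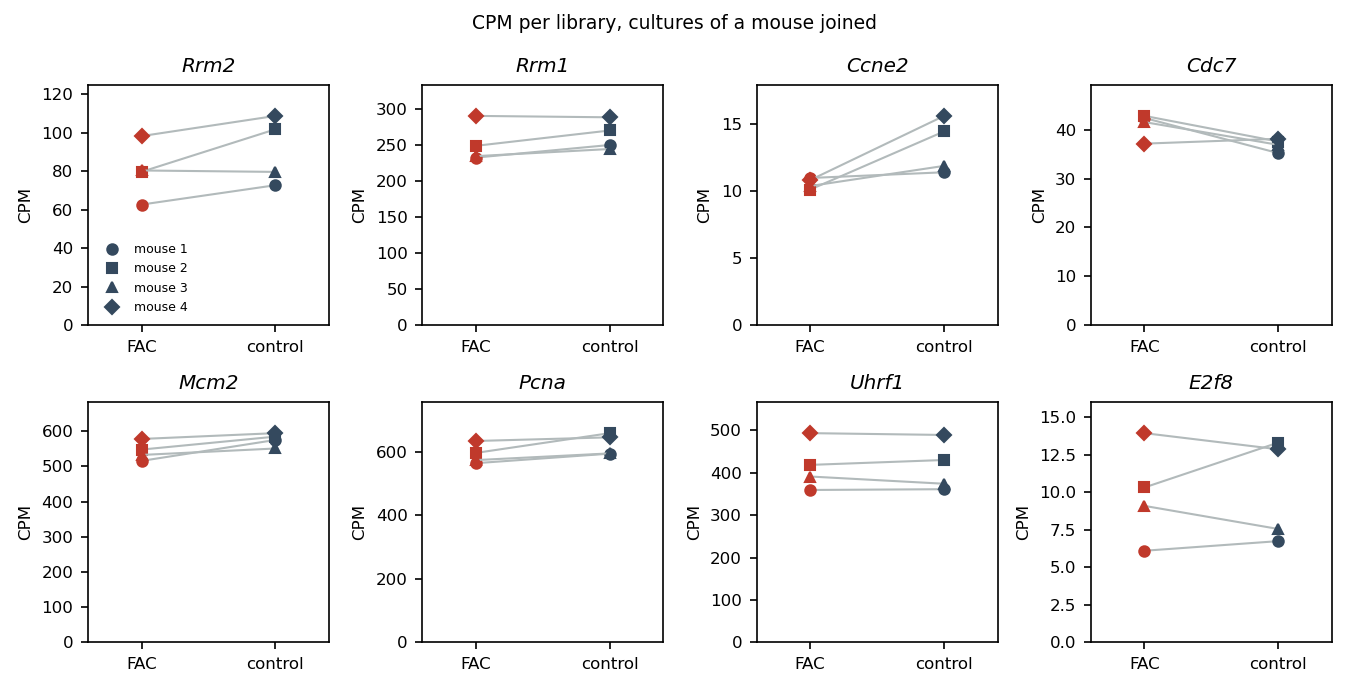
CPM of Rrm2, Rrm1, Ccne2, Cdc7, Mcm2, Pcna, Uhrf1 and E2f8 in each library, FAC left of control in each panel, with a marker shape for each mouse, a line joining its 2 cultures and every vertical axis starting at 0. Ccne2 has no overlap between groups in CPM, while in Uhrf1 the lines run nearly level and the mice keep their order, from 359 to 493 CPM in FAC libraries and 361 to 489 CPM in control libraries.

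The 4 repair and checkpoint genes lay between -0.12 and 0.02. Ung, which removes uracil from new DNA, was at -0.09, the nuclease Exo1 at -0.12 and the helicase Blm at -0.09, each lower with FAC in 4 of 4 mice and none past the test. Clspn, the claspin adaptor that passes stalled-fork signals to Chek1, had 27.5, 35.9, 34.8 and 49.6 CPM in FAC mice 1 to 4, against 30.3, 37.7, 33.1 and 43.9 CPM in control mice 1 to 4. Mice 3 and 4 were higher with FAC and mice 1 and 2 lower (0.02, 95% interval -0.30 to 0.34, edgeR adjusted p = 0.958).

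Beyond these 37, 111 other genes of the replication machinery were tested, and 2 rose and 2 fell with FAC, beside 2.18% of all genes higher and 1.10% lower, so the calls were near the share over all genes. Their median log2 change was -0.04. With mouse as a block the counts were 4 higher and 5 lower, beside 6.87% of all genes in either direction. Leaving out any 1 library left 0 or 1 higher and 1 to 4 lower, while among all genes 80 to 405 were higher and 65 to 243 lower. Of the 4 genes Cdkn1a alone kept its call without each of the 8 libraries. Cdkn1a, the p21 inhibitor of cyclin-dependent kinases that also binds Pcna, had 20.8, 22.2, 20.2 and 20.7 CPM in FAC mice 1 to 4, against 27.6, 30.4, 31.2 and 31.5 CPM in control mice 1 to 4. Each FAC library was well below each control library, and Cdkn1a fell, with a log2 change of -0.53, an SE of 0.06 and an edgeR adjusted p of 0.000288.

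Samhd1, which breaks down deoxynucleotides and so opposes ribonucleotide reductase, had 71.0, 75.1, 77.9 and 77.9 CPM in FAC mice 1 to 4, against 59.3, 64.3, 68.2 and 65.6 CPM in control mice 1 to 4. The groups did not overlap, and Samhd1 rose, with a log2 change of 0.23 (SE 0.05, edgeR adjusted p = 0.0307), a call that held without FAC mouse 1 or control mouse 3 but not without any other library, where the adjusted p reached 0.124. Atr, the kinase that senses stalled forks, averaged 60.7 ± 1.00 CPM in FAC cultures and 53.3 ± 2.57 CPM in control cultures (SD, n = 4 each). It rose, by a log2 change of 0.19 (SE 0.05, edgeR adjusted p = 0.0451), but the call was lost whichever library was left out, with an adjusted p from 0.059 to 0.141. Pole4, a small histone-binding subunit of polymerase epsilon, averaged 113 ± 3.08 CPM in FAC cultures and 127 ± 4.67 CPM in control cultures. It fell by 0.17 (SE 0.04, edgeR adjusted p = 0.0352), a call kept only without FAC mouse 1 or FAC mouse 4 among the 8 omissions.

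Other well-known replication genes did not pass. Pole, the catalytic subunit of the leading-strand polymerase, averaged 133 ± 10.7 CPM in FAC cultures and 121 ± 13.5 CPM in control cultures (SD, n = 4 each) and was higher with FAC in 4 of 4 mice (0.14, edgeR adjusted p = 0.343). With mouse as a block its adjusted p was 0.0353. Rbl2 (0.26), a retinoblastoma relative, was also called higher with the block, and Chtf8, Hells and Cdc25a (-0.14 each) lower. The checkpoint kinase gene Chek1 was at -0.12, the maintenance methyltransferase gene Dnmt1 at -0.01, Pold1 at 0.06 and the thymidine kinase gene Tk1 at 0.09, with edgeR adjusted p from 0.321 to 0.925. Of 30 mitosis genes, 0 passed in either direction in edgeR, with or without the block, with a median of -0.07. At an unadjusted p under 0.05 edgeR gave 1 of them, DESeq2 2 and limma on TPM 0.

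More of these genes were called for mouse of origin than for FAC. An edgeR F test of the mouse term, fitted beside the FAC term and chosen after the values were seen, called 14 of the 37 genes at an adjusted p under 0.05, against 1.26% of all genes. They were Cdc6, Mcm5 and Mcm7 of licensing, Cdc45 and Mcm10 of helicase activation, Rpa2 and Lig1 at the fork, Rrm1 and Rrm2, Chaf1a, Chaf1b and Uhrf1, and E2f8 and Clspn. The same edgeR test called 9 of the 30 mitosis genes and 15 of the 111 other replication genes. DESeq2's likelihood ratio test called 19 of the 37 (0.981% of all genes). Each mouse has 2 libraries, so the edgeR count among the 37 moved with the libraries used. It was 5 without FAC mouse 1 (0.525% of all genes) and 5 without FAC mouse 4 (0.602%), 8 without FAC mouse 3 (0.612%) and 8 without control mouse 3 (0.479%). It was 10 without control mouse 1 (0.966%) and 10 without control mouse 4 (1.12%), 17 without control mouse 2 (1.72%) and 20 without FAC mouse 2 (2.85%). Uhrf1, Lig1, Cdc45 and Clspn kept the call without any 1 library.

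The order of mice was largely shared between groups. The orders counted below, and the contrast of mouse 4 with mouse 1, were chosen after the values of these same genes were seen. Such counts describe that order and do not test it. Mouse 4 was highest in FAC and in control for 24 of the 37 genes (9.91% of all genes), and mouse 1 was lowest in both for 22 (11.5%). Mice 2 and 4 both stood above mice 1 and 3, in FAC and in control, for 27 of the 37 (6.85%). Among the 30 mitosis genes these orders held, in turn, for 19, 17 and 18. Among the 111 other replication genes they held for 39, 26 and 40. The log2 difference of mouse 4 over mouse 1 had a median of 0.26 over the 37 genes, 0.13 over the other replication genes, 0.48 over the mitosis genes and 0.00 over all genes. Mouse 2 over mouse 1 had a median of 0.17 over the 37 genes.

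Uhrf1 had 359, 418, 391 and 493 CPM in FAC mice 1 to 4, against 361, 430, 374 and 489 CPM in control mice 1 to 4. Mouse for mouse the 2 cultures were nearly level, while mouse 4 stood 0.45 above mouse 1 on the log2 scale (edgeR adjusted p for mouse = 0.000441). Lig1 had 157, 179, 161 and 203 CPM in FAC mice and 157, 186, 159 and 202 CPM in control mice, with mouse 4 again highest and mouse 1 lowest (0.37, adjusted p for mouse = 0.00194). E2f8 differed most in size, at 6.10, 10.3, 9.08 and 13.9 CPM in FAC mice and 6.74, 13.3, 7.55 and 12.8 CPM in control mice (1.06, adjusted p for mouse = 0.0112). In Rrm2 mouse 4 over mouse 1 was 0.61 (adjusted p for mouse = 0.00419), against -0.18 for FAC over control. Ccne2 and Cdc7, at the ends of the FAC comparison, were not called for mouse (adjusted p = 0.655 and 0.879), nor were Pcna (0.203) and Mcm2 (0.404).

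**Figure D4:**
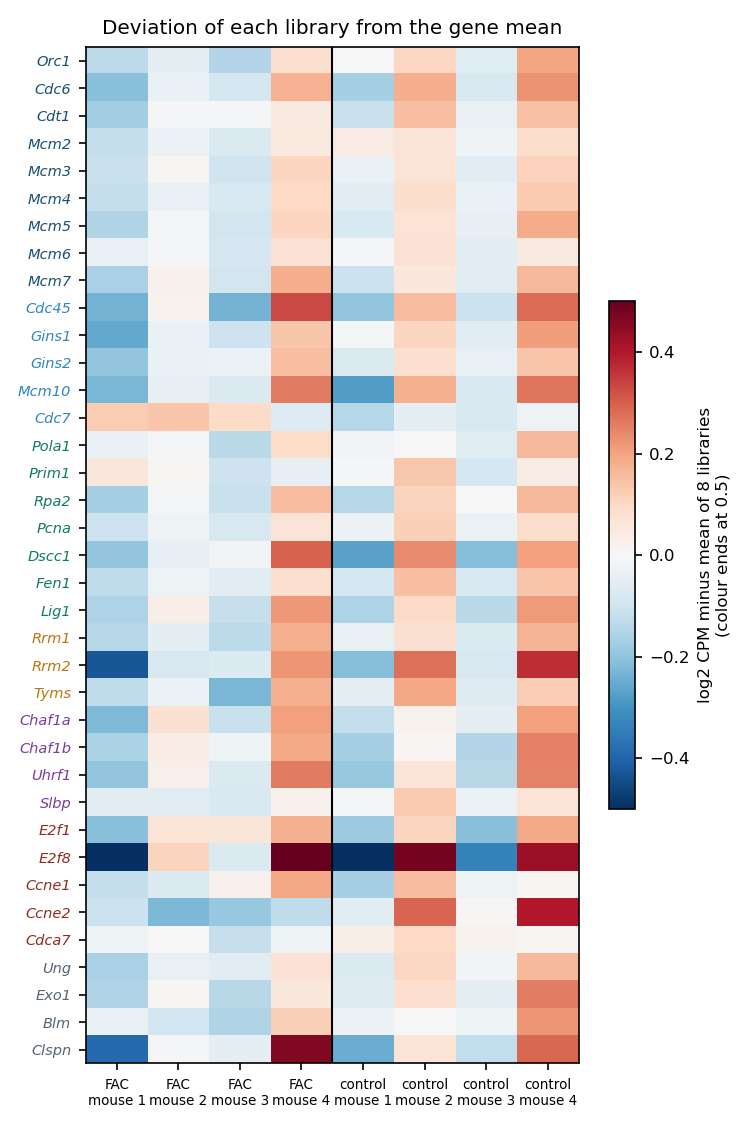
Deviation of each library from the gene's mean over all libraries, on the log2 scale, for the 37 genes in rows and the FAC libraries left of the control libraries in columns, with the colour held at 0.5 in either direction. The mouse 4 column is high and the mouse 1 column low in both groups for most genes.

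**Figure D5:**
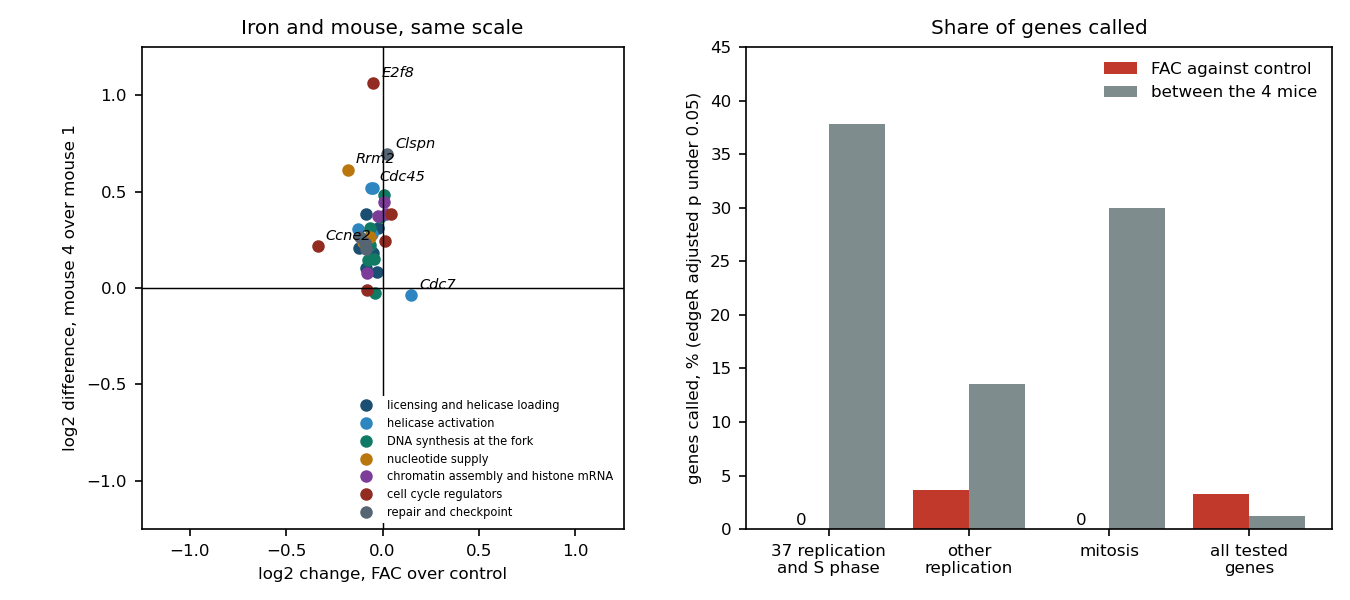
Each gene's log2 change, FAC over control, on the horizontal axis and its log2 difference of mouse 4 over mouse 1 on the vertical axis, coloured by role, beside bars of the percent of genes called for FAC and for mouse in the 37 genes, the other replication genes, the mitosis genes and all genes tested. The 37 genes lie near 0 for FAC and mostly above 0 for mouse, with 0 called for FAC and 14 for mouse. The contrast of mouse 4 with mouse 1 was chosen after the values were seen.

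Total counts in FAC mice 1 to 4 were 31428728, 32368377, 28700514 and 25410267. In control mice 1 to 4 they were 25478716, 37350609, 30464577 and 28509023. Whether depth bears on the order of mice was not tested. Of the 14 genes called for mouse all had a promoter window, and 6 held the 8-letter E2F motif, 12 the 7-letter one and 11 CCAAT. Of the other 17 genes with a window 6, 10 and 9 held them, and the difference between the sets was not tested. A mouse and the sort, culture and library preparation of its cells cannot be told apart here.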

How the data were processed

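Libraries were made from 250 ng of RNA with Illumina's Stranded mRNA Prep kit, per the labels' protocols. The build GRCm39 and the tools RSEM 1.3.1, STAR 2.7.6a, DESeq2 1.26.0, DESeq, FastQC and R 3.6.3 are named without roles, per the submitters' processing notes. For the annotation release and strand setting nothing is given in the sources used here. Gene-level RSEM expected counts, unscaled, were deposited by the authors together with TPM, scaled for length and to a fixed total. A deposited table holds a normalised signal for 13751 genes, which the authors scaled between libraries by a method not stated. A gene whose deposited counts are not whole within 0.005 shares reads with another.

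Here expected counts were rounded and tested with edgeR 4.0.16 in R 4.3.3 (filterByExpr with a minimum count of 10 and a minimum total of 15, TMM, quasi-likelihood F test, FAC and control as the only term), with Benjamini-Hochberg adjustment over 13378 genes and a threshold of 0.05. CPM use TMM library sizes, SE are the log2 change over the root of F, and a log2 change is FAC over control. DESeq2 1.42.0, limma 3.58.1 on log2 of TPM or signal plus a pseudocount (1 or 0.1), no filter, mouse as a block and each library left out were alternatives. Scripts were tested on simulated counts. The numbers pair the libraries because the labels give 1 animal for each number. Deviations from the group means correlated at r = 0.137, 0.0165, 0.0647 and 0.139 within mice 1 to 4 over 13378 genes. Between different mice r ran from -0.180 to 0.0331, a range that holds the value of mouse 2. Cultures of 1 group come from separate mice. Values per library are given for a fixed set of genes of each role, the genes of largest positive and negative change and those called, and some genes outside the 37 are not reported here. The 37 genes, the lists and the tests were chosen with earlier results of these data known. The test of mouse, the orders of mice and the contrast of mouse 4 with mouse 1 were chosen after their values were seen. Lists are described by counts and medians, with no test.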

Additional observations from a re-analysis of the deposited data

Results flagged for a closer look

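Of 100 groups of 4 libraries checked among these genes, 3 had a library far from the other 3, and chance alone flags about 1 in 20 such groups. All 3 were control mouse 4. The helicase gene Blm stood at 61.2 CPM there, against 51.4 to 52.6 CPM in the other control mice. The maintenance methyltransferase gene Dnmt1 stood at 537 CPM, against 486 to 493 CPM. The polymerase gene Pole stood at 141 CPM, against 111 to 116 CPM. In FAC libraries mouse 4 was also the highest for each, at 56.9, 529 and 146 CPM.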

How the results depend on the processing

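Of 555 results for single genes, the 37 genes under 15 other settings, 491 kept their direction and their side of the threshold, 63 changed sign and 1 passed the threshold. All 63 were below 0.15 in size, and 22 genes changed sign under no setting. No replication gene of the 37 was called with the replicate block. With that block and mouse 4 left out, 1 was called higher (Cdc7), beside 734 of the 13489 genes tested. With the block and mouse 1 left out, 1 was called lower (Ccne2), beside 273 of 13453. With no filter on low counts 1 was called lower, Ccne2 at -0.35, beside 286 of 25076. Of the other replication genes, 2 were called higher and 2 lower. With the replicate block these were 4 and 5, beside 544 and 375 of 13378 genes. With no filter they were 1 and 4, beside 450 and 286 of 25076. With DESeq2 4 were lower, beside 305 of 25076. With limma 1 was higher on TPM at either pseudocount, beside 112 and 108 of 13378 genes. On TPM or signal limma called 1 lower, beside 32 and 30 genes on TPM and 57 of 13751 on signal. With the block and mouse 2 left out they were 1 and 1, beside 274 and 180 of 13391 genes. With the block and mouse 3 left out they were 1 and 1, beside 96 and 69 of 13409. With the block and mouse 4 left out 10 were lower, beside 483 of 13489. Leaving out 1 library gave 0 to 1 higher and 1 to 4 lower. Among all genes 80 to 405 were then higher and 65 to 243 lower. The median change of the 37 genes was -0.020 and -0.021 in limma on TPM at the larger and smaller pseudocount, where the median of all genes was 0.03, and -0.11 to -0.020 with 1 library left out. Of the 37 genes, 26 were called for mouse with no filter, where 3.78% of all genes were, and 5 to 20 with 1 library left out, where 0.479% to 2.85% were.

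In limma on log2(TPM + 1) and log2(TPM + 0.1), the change turned to 0.0286 and 0.0287 for Mcm6, 0.047 and 0.048 for Mcm7, 0.074 and 0.076 for Mcm10, 0.0083 and 0.0087 for Pola1, -0.015 and -0.016 for Dscc1, 0.0637 and 0.0643 for Lig1, and -0.038 and -0.041 for Clspn. On the normalised signal it turned to 0.028 for Mcm10, 0.017 for Lig1, -0.064 for Dscc1, -0.013 for Chaf1b, -0.0031 for Uhrf1 and -0.089 for Clspn, and with no filter to -0.0075 for Dscc1, -0.0061 for Uhrf1 and -0.0027 for Ccne1. With 1 library left out the change ran from -0.092 to 0.029 for Mcm7, -0.19 to 0.024 for Cdc45, -0.12 to 0.00015 for Gins2, -0.15 to 0.033 for Mcm10, -0.082 to 0.0041 for Pola1, -0.096 to 0.095 for Dscc1, -0.091 to 0.060 for Lig1, -0.099 to 0.044 for Chaf1a, -0.043 to 0.11 for Chaf1b, -0.087 to 0.096 for Uhrf1, -0.023 to 0.11 for E2f1, -0.26 to 0.12 for E2f8, -0.055 to 0.070 for Ccne1 and -0.15 to 0.14 for Clspn. The cause was not tested. Without FAC mouse 4 the median was lowest, and without control mouse 4 highest. The 95% intervals of the 37 genes had a median half-width of 0.15 without the block and 0.088 with it.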
